A study of Mus musculus with 16 samples.

Results

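The genes described here encode oxidoreductases, most of which interconvert alcohols with aldehydes or ketones or oxidise aldehydes to acids. They are the alcohol dehydrogenases, aldehyde dehydrogenases, aldo-keto reductases, retinol and related short-chain dehydrogenases, the hydroxysteroid dehydrogenases of the 3-beta, 11-beta and 17-beta families, with myo-inositol oxygenase (Miox), an oxygenase, added to them. They were chosen by gene symbol, without Akr1c21, Hsd17b4 and Hsd17b7, by a rule set with earlier results of these data known. Of the 9669 genes with a named probe, 48 met the rule. RNA from the left kidney or the dorsal liver lobe of 3 wildtype males of the inbred C3HeB/FeJ strain, aged 105 ± 5 days, was measured on 16 cDNA arrays with 2 colours. On 7 arrays the kidney of a single mouse was set against a pool of 5 livers (kidney arrays: 3, 3 and 1 for mice 1, 2 and 3). On 9 arrays the liver of a single mouse was set against a pool of 5 kidneys (liver arrays: 3 for each mouse). No mouse was treated or genetically altered, and the pools give no spread between animals.

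These enzymes set the oxidation state of small molecules. Alcohol and aldehyde dehydrogenases clear ethanol, formaldehyde and lipid aldehydes, and the same chemistry turns retinol into retinal and retinoic acid. Hydroxysteroid dehydrogenases switch steroid hormones between active and inactive forms within a tissue, so that a cell can raise or lower its own hormone level. In liver several of them also serve bile acid synthesis, whereas in kidney 11-beta-hydroxysteroid dehydrogenase type 2 (Hsd11b2) protects the mineralocorticoid receptor from glucocorticoids and Miox opens the breakdown of myo-inositol.

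Signed values below give the log2 ratio of the kidney signal to the liver signal. The direction was set from textbook markers. Albumin (Alb) averaged 8.21 ± 1.19 on kidney arrays and -7.57 ± 1.5 on liver arrays as deposited, and the kidney transcript Kap averaged -6.02 ± 0.98 and 6.08 ± 0.25 (SD, n = 3 mice each), so deposited values were read as pool over single mouse. This opposes the order in the titles. If the titles are right instead, kidney and liver trade places in each statement, while sizes and p-values stay as they are. As read here, 7 of 7 proximal tubule markers were higher in kidney, with a median of 4.56, and 8 of 8 hepatocyte markers were higher in liver, with a median of -7.20. These lists include Kap and Alb, which set the direction and so add no evidence on it. The other genes of both lists did not set it and lay on the same sides. None of the 4 measured adrenal cortex markers passed the test. Their estimates lay between -0.66 and -0.44, around the median of -0.48 over all genes. Star and Cyp11a1 lay between -0.26 and 0.54 in mice 1 and 3 and between -2.67 and -1.57 in mouse 2. The adrenal gland lies on the kidney, but whether kidney samples carried adrenal RNA was not tested. An array held between 15480 and 19432 values. The 6 arrays of mouse 2 stood apart, with medians between -1.49 and -1.19, while those of the other 10 lay within 0.003 of 0. This offset was small for probes with bright signal (median difference from mice 1 and 3 of -0.23 on kidney arrays and -0.35 on liver arrays) and large for dim ones (-1.55 and -1.43). Signal was judged by the share of a probe's values that recur exactly on an array, a mark of small whole-number intensities. A share of at most 10% was called bright and one over 50% dim. The share is read from the same ratios, so a large organ difference can itself place a probe among the bright ones.

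The promoters of 4 genes are shown because they belong to the members with the largest excess in each organ and to a pair of related genes that lay on opposite sides. Each run covers the 250 bases before the RefSeq start of the gene (GRCm38.p6), 5′ to 3′ on the strand of the gene. Capitals mark 3 motifs on either strand, which do not overlap each other in these runs: GTTAAT, the core of each arm of the hepatocyte nuclear factor 1 site, AGGTCA, the core bound by many nuclear receptors, and TATAAA, the TATA box. The motifs were chosen with the values known.
Miox (chr15:89334223-89334472, plus strand): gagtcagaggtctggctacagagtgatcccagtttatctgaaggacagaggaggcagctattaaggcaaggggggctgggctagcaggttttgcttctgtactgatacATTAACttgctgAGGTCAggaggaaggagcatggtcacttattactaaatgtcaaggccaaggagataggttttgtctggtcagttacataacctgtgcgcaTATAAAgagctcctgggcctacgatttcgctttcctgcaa
Hsd3b4 (chr3:98510568-98510817, minus strand): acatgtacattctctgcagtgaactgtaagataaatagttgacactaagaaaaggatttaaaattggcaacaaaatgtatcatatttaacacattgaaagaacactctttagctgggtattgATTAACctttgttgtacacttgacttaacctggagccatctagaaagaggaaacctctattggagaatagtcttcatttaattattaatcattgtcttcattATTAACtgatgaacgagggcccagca
Hsd3b3 (chr3:98763129-98763378, minus strand): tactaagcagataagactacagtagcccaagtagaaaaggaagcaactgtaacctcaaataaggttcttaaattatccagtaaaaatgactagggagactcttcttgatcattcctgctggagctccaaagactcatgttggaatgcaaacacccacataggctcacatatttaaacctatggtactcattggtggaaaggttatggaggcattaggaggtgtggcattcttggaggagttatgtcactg
Rdh7 (chr10:127889248-127889497, minus strand): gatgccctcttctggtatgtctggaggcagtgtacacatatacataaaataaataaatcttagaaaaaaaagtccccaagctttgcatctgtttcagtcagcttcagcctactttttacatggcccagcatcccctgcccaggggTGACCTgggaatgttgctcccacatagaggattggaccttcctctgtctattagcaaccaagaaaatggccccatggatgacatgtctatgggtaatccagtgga
GTTAAT or its complement stood in the windows of Miox and Hsd3b4, both higher in kidney, and in 1 of the 11 windows of genes higher in liver (Aldh1a7). It was present in 3 of the 40 member promoters matched in RefSeq and in 6.43% of all 32851 promoter windows. AGGTCA stood in 7 of the 40 and in 14% of all, and TATAAA in 6 of the 40 and in 12.4% of all. A match describes letters in a window and no binding. None of the 3 motifs stood in the window of Hsd3b3.

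The comparison asked which of these enzymes have unequal RNA levels in the 2 organs. As deposited, more members passed with liver excess than with kidney excess. Of 45 members measured in 2 or more mice on each kind of array, 2 passed as higher in kidney and 13 as higher in liver (limma, Benjamini-Hochberg adjusted p under 0.05 over 9047 genes). The steepest differences were in Miox, 36.3-fold higher in kidney, and in the retinol dehydrogenase Rdh7, 41.4-fold higher in liver. Over all genes tested, 14.4% passed, 5.56% as higher in kidney and 8.88% as higher in liver, against 33.3% of the tested members. The median estimate was -0.64 over the members and -0.48 over all genes. The fit behind these counts and shares treats the 6 averages as independent, although the same mice supplied both organs. Its p-values are therefore likely understated. In a fit that takes each mouse as 1 pair, 9 of the 15 members passed, against 7.51% of all genes. Of these members, 2 were higher in kidney and 7 in liver. The split differed between treatments of the arrays. It was 9 in kidney against 11 in liver with arrays centred, 6 against 8 with the mouse as a replicate block on centred arrays, and 9 against 15 without mouse 2. The shares of all genes called moved as well. For kidney and liver they were 19.5% and 12.4%, 11.8% and 5.35%, and 20.3% and 15.7% in these treatments. Every one of the 15 called members had one sign in all of its averages by mouse and organ. The test is on the mean of these averages and so favours one sign, which is no separate support. Single probes of Aldh2 and Rdh11 had averages of both signs. In whole tissue, fewer cells of a type and less RNA per cell cannot be told apart.

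**Figure D1:**
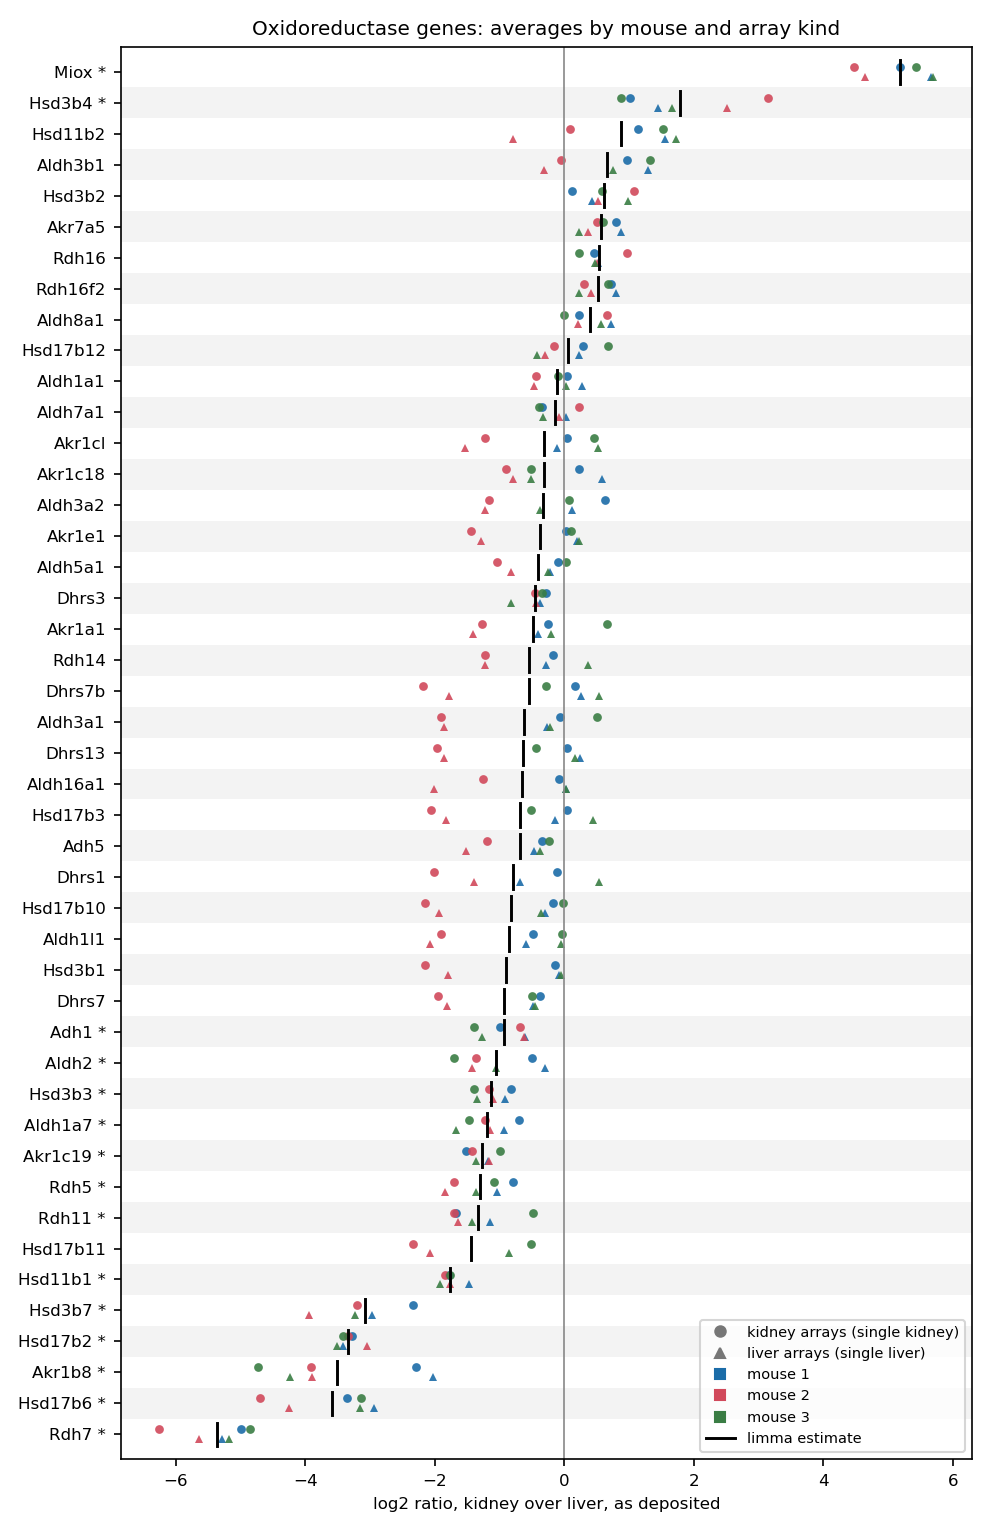
Averages of each mouse on kidney arrays (circles) and liver arrays (triangles) for the 45 tested members, as log2 ratios of kidney over liver (horizontal axis), with genes down the page ordered by the limma estimate (black bar) and an asterisk on the 15 that passed. Miox and Hsd3b4 lie right of 0 in all averages, 13 called genes lie left of it, and mouse 2 is the lowest on both kinds of array in 22 of 39 members with all averages.

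Miox, the oxygenase that cleaves myo-inositol to glucuronate in the proximal tubule, stood far above every other member on the kidney side. Its averages for mice 1, 2 and 3 were 5.18, 4.47 and 5.43 on the kidney arrays and 5.66, 4.65 and 5.70 on the liver arrays. Both kinds of array overlapped, and mouse 2 was the lowest on each. On single arrays the values ran from 4.38 to 5.93. The estimate was 5.18 (SE 0.25, adjusted p = 2.8e-06, limma), and it passed in all 14 alternative treatments of the data. Other genes of the same route lay on both sides. Akr1a1, the aldehyde reductase that acts on glucuronate, was at -0.48 (SE 0.30, adjusted p = 0.245, limma) on a dim probe, and the estimate was 0.02 with mouse 2 aligned by signal. Of 6 measured genes of the glucuronate and inositol route beside the members, Cryl1, which oxidises gulonate further along, was higher in kidney (2.63, SE 0.21) and Rgn, the lactonase of ascorbate synthesis, higher in liver (-3.43, SE 0.35). Slc5a11, a sodium-coupled inositol transporter, was at 1.32 (SE 0.39, adjusted p = 0.0587, limma) and passed after centring (1.77, adjusted p = 0.00205, limma).

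Steroid enzymes of the 3-beta family lay on both sides. Of 5 tested, Hsd3b4 was higher in kidney, Hsd3b7 and Hsd3b3 were higher in liver, and Hsd3b2 and Hsd3b1 did not pass. Hsd3b4, a kidney form of the mouse, had averages of 1.01, 3.14 and 0.87 on the kidney arrays and 1.44, 2.52 and 1.67 on the liver arrays. Here mouse 2 was the highest on both kinds, opposite to its offset on most probes. The estimate of 1.78 (SE 0.34, 3.43-fold, adjusted p = 0.00869, limma) became 1.25 without mouse 2, where it also passed. It missed the threshold without mouse 1 and on the kidney arrays alone. Hsd3b7, the 3-beta enzyme of bile acid synthesis, was at -2.34 and -3.20 in mice 1 and 2 on the kidney arrays, with no value for mouse 3, and at -2.98, -3.95 and -3.24 on the liver arrays. Each average lay below -2, although a kidney array of mouse 1 was at -0.79. The estimate was -3.08 (SE 0.28, 8.46-fold higher in liver, adjusted p = 0.000257, limma). Hsd3b3, made in both organs of the mouse, had averages of -0.83, -1.16 and -1.40 on the kidney arrays and -0.91, -1.11 and -1.35 on the liver arrays. Its estimate of -1.13 (SE 0.21) passed at an adjusted p of 0.0071 (limma). It did not pass after centring (-0.67, adjusted p = 0.0743, limma) or with the mouse as a replicate block (adjusted p = 0.126, limma). With mouse 2 aligned by signal it passed (-1.06, adjusted p = 0.000162, limma).

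Hsd3b4, Hsd3b2, Hsd3b3 and Hsd3b1 follow each other in this order on chromosome 3, and their ratios differed along the row. Hsd3b2 and Hsd3b3 are adjacent, with no protein-coding gene between them, and stood at 0.61 (SE 0.22, adjusted p = 0.101, limma) and -1.13. For Hsd3b2 all 6 averages were positive, from 0.11 to 1.08, and for Hsd3b3 all were negative. Hsd3b1, the form of adrenal gland and gonads, was near 0 in mice 1 and 3 (-0.15 to -0.05) and at -2.16 and -1.80 in mouse 2, on a probe with 55.6% recurring values. A cDNA probe can bind transcripts of closely related genes, so values within this family, and within the retinol dehydrogenase and Akr1c families, may not be specific to 1 gene. Probe sequences were not available to examine this. Whether differences between these paralogues are understated by such binding was not tested.

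**Figure D2:**
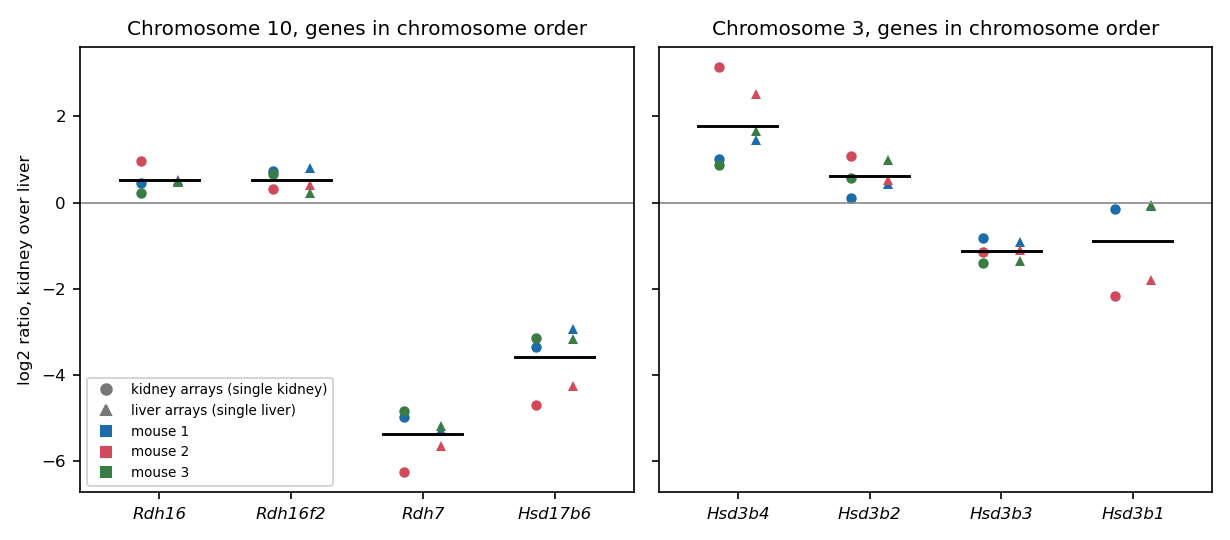
Averages of each mouse on kidney arrays (circles) and liver arrays (triangles), as log2 ratios of kidney over liver (vertical axis), for related genes in their order on chromosome 10 (left) and chromosome 3 (right), with the limma estimate as a bar. Rdh16 and Rdh16f2 lie above 0 beside Rdh7 near -5, and Hsd3b4 and Hsd3b2 lie above 0 beside Hsd3b3 near -1.

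The 11-beta enzymes, which control local glucocorticoid, fell on opposite sides, but only one passed as deposited. Hsd11b1, which regenerates active glucocorticoid, had averages of -1.79, -1.84 and -1.76 on the kidney arrays and -1.48, -1.77 and -1.92 on the liver arrays. All 6 lay between -1.92 and -1.48, and the estimate was -1.76 (SE 0.20, 3.39-fold higher in liver, adjusted p = 0.000446, limma). It passed in all 14 alternatives. A dim probe with values on 3 liver arrays averaged -0.15 and enters these liver averages, while the bright probe alone averaged -1.91. H6pd, which supplies its NADPH, was at -0.45 and did not pass. Hsd11b2, which inactivates glucocorticoid in aldosterone target cells of the distal nephron, had averages of 1.13, 0.08 and 1.52 on the kidney arrays and 1.56, -0.80 and 1.73 on the liver arrays. Mice 1 and 3 lay above 1 on both kinds and mouse 2 near or below 0. One liver array of mouse 2 was at -3.00. The estimate of 0.87 (SE 0.37) did not pass (adjusted p = 0.139, limma). It was 1.48 without mouse 2 (adjusted p = 0.000131, limma), 1.32 after centring (adjusted p = 0.00068, limma) and 1.21 with mouse 2 aligned by signal (adjusted p = 0.000849, limma).

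Among 6 enzymes of the 17-beta family, 2 passed, both with liver excess. Hsd17b2, which oxidises estradiol and testosterone to weaker ketones, varied little across mice. Its averages were -3.28, -3.34 and -3.42 on the kidney arrays and -3.42, -3.05 and -3.51 on the liver arrays, with an estimate of -3.34 (SE 0.20, 10.1-fold higher in liver, adjusted p = 9.7e-06, limma). Hsd17b6, a retinol dehydrogenase-like enzyme of 3-alpha-hydroxysteroids, had averages of -3.36, -4.70 and -3.15 on the kidney arrays and -2.94, -4.25 and -3.16 on the liver arrays. Mouse 2 was lower by over 1 on each kind, and the estimate was -3.59 (SE 0.29, 12.1-fold higher in liver, adjusted p = 6.01e-05, limma). Hsd17b11, an enzyme of lipid droplets, was at -2.34 and -0.51 in mice 2 and 3 on the kidney arrays and at -2.08 and -0.85 on the liver arrays, with no value for mouse 1. Its estimate of -1.44 (SE 0.41) missed the threshold (adjusted p = 0.0674, limma) and passed after centring (-0.77, adjusted p = 0.0154, limma). Hsd17b10, a mitochondrial enzyme, was at -0.82 on a dim probe. The testis enzyme Hsd17b3 was at -0.68, and Hsd17b12, which acts in fatty acid elongation, at 0.05.

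Retinol dehydrogenases held the largest liver excess. Of 6 tested, Rdh7, Rdh11 and Rdh5 were higher in liver and none passed as higher in kidney. Rdh7, a short-chain enzyme that oxidises retinols and steroids, had averages of -4.99, -6.26 and -4.85 on the kidney arrays and -5.29, -5.65 and -5.18 on the liver arrays. The least negative average was -4.85, with mouse 2 lowest on both kinds, and the estimate was -5.37 (SE 0.25, adjusted p = 2.51e-06, limma). Its neighbours on chromosome 10 did not share this level. Rdh16f2, directly adjacent, was at 0.52 (SE 0.21) and Rdh16 at 0.53 (SE 0.21), both with an adjusted p of 0.119 (limma) and with 6 positive averages. Rdh16f2 ranged from 0.23 to 0.80 and Rdh16 from 0.23 to 0.97. Both passed as higher in kidney after centring and without mouse 2. On the far side of Rdh7, with 1 gene between, Hsd17b6 was at -3.59.

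Rdh11, which reduces retinal, was at -1.34 (SE 0.24, adjusted p = 0.00667, limma). Its probes differed in level: the brighter, with 20% recurring values, had averages from -1.98 to -1.13, and the dimmer, with 62.5%, from -2.15 to 0.90. Rdh5, the 11-cis-retinol dehydrogenase, had averages of -0.80, -1.70 and -1.08 on the kidney arrays and -1.04, -1.85 and -1.37 on the liver arrays, with an estimate of -1.31 (SE 0.23, adjusted p = 0.00558, limma). With the mouse as a replicate block it missed the threshold (adjusted p = 0.0524, limma). Rdh14 was at -0.54 on a dim probe. Of the Dhrs genes, relatives of the retinol dehydrogenases, 5 were tested and none passed, with estimates from -0.93 (Dhrs7) to -0.45 (Dhrs3). Dhrs7 passed as higher in liver after centring (-0.48, adjusted p = 0.0126, limma), with mouse 2 aligned (adjusted p = 0.00795, limma) and without mouse 2 (adjusted p = 0.0161, limma). Dhrs3, which reduces retinal to retinol, was the most even, with averages from -0.82 to -0.28. Of 7 tested genes of retinoid binding and signalling beside the members, the receptor Rxra was higher in liver (-0.81, SE 0.20) and no other passed. Rxra did not pass after centring (adjusted p = 0.3, limma) or with the mouse as a block (adjusted p = 0.285, limma).

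Aldo-keto reductases included 2 genes higher in liver among 7 tested. Akr1b8, an aldose reductase relative, differed widely between mice. Its averages for mice 1, 2 and 3 were -2.30, -3.91 and -4.74 on the kidney arrays and -2.03, -3.90 and -4.24 on the liver arrays. The order of the mice was the same on both kinds of array, which carry different organs of these mice, and mouse 1 was the least negative. Mice kept 1 order on both kinds in 17 of the 39 members with all averages. Over all 7514 genes with all averages the share was 53.3%. The estimate was -3.52 (SE 0.39, 11.5-fold higher in liver, adjusted p = 0.000432, limma). Akr1c19, of the Akr1c cluster on chromosome 13, was at -1.28 (SE 0.20, adjusted p = 0.00329, limma), with averages from -1.52 to -0.99, and missed the threshold with the mouse as a replicate block (adjusted p = 0.062, limma). Akr1c18, the 20-alpha-hydroxysteroid dehydrogenase, was at -0.32. Akr7a5, an aflatoxin aldehyde reductase, had averages of 0.79, 0.50 and 0.59 on the kidney arrays and 0.88, 0.37 and 0.22 on the liver arrays. All were positive, but the estimate of 0.56 (SE 0.21) did not pass as deposited (adjusted p = 0.105, limma) and was 1.01 after centring (adjusted p = 0.011, limma).

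Alcohol and aldehyde dehydrogenases differed little in comparison. Adh1, the class I enzyme of ethanol and retinol, had averages of -0.99, -0.68 and -1.40 on the kidney arrays and -0.61, -0.62 and -1.27 on the liver arrays. It was 1.90-fold higher in liver (-0.93, SE 0.22, adjusted p = 0.0239, limma), but not after centring (-0.48, adjusted p = 0.274, limma), with the mouse as a replicate block (adjusted p = 0.239, limma) or with trend and robust variances. Adh1 passed with mouse 2 aligned by signal (-0.86, adjusted p = 0.00229, limma). Adh5, the formaldehyde enzyme, was at -0.69 and did not pass (SE 0.25, adjusted p = 0.103, limma). In mice 1 and 3 its averages lay between -0.47 and -0.23, and in mouse 2 at -1.19 and -1.52.

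Of 11 tested aldehyde dehydrogenases, Aldh1a7 and Aldh2 passed, both with liver excess. Aldh2, the mitochondrial enzyme that clears acetaldehyde, is represented by 3 probes. The brightest had averages from -1.72 to -1.0, while the others lay between -2.21 and 0.77, so the gene's estimate of -1.06 (SE 0.26, adjusted p = 0.0265, limma) mixes signals of different quality. It missed the threshold after centring (-0.61, adjusted p = 0.074, limma) and with the mouse as a replicate block (adjusted p = 0.161, limma). It also missed it with the median in place of the mean of the probes. With mouse 2 aligned by signal it passed (-0.78, adjusted p = 0.00795, limma). Aldh1a7, a cytosolic enzyme of the mouse, had averages of -0.70, -1.23 and -1.48 on the kidney arrays and -0.94, -1.15 and -1.68 on the liver arrays, with an estimate of -1.20 (SE 0.22, adjusted p = 0.00753, limma) that did not pass after centring (-0.74, adjusted p = 0.066, limma) or with the mouse as a replicate block (adjusted p = 0.0934, limma). Aldh1a7 passed with mouse 2 aligned by signal (-0.95, adjusted p = 0.0034, limma). Its adjacent relative Aldh1a1, which oxidises retinal, was at -0.11 (SE 0.21, adjusted p = 0.68, limma), with averages from -0.47 to 0.27 on a dim probe.

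The other 8 aldehyde dehydrogenases with an estimate lay between -0.86 and 0.66. Aldh3b1, an enzyme of lipid aldehydes, was at 0.66 (SE 0.29, adjusted p = 0.143, limma), with 0.97 and 1.33 in mice 1 and 3 against -0.05 in mouse 2 on the kidney arrays, and 1.29 and 0.75 against -0.32 on the liver arrays. It passed without mouse 2 (1.09, adjusted p = 0.00108, limma). Aldh8a1, of tryptophan breakdown, was at 0.40 with averages from 0.00 to 0.72. Aldh7a1, of lysine breakdown, was at -0.15 on a bright probe, with averages from -0.39 to 0.23. Aldh1l1, of folate metabolism, and Aldh5a1, of GABA breakdown, were at -0.86 and -0.40. Aldh3b2, Dhrs4 and Dhrs7c had too few values to be tested. Dhrs4 had none on the liver arrays.

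Dim probes and mouse 2 moved with the members that did not pass. Of the 15 called members, 10 had a single bright probe. None of 13 tested members with a single dim probe passed, against 2.65% of 3319 such genes, while 10 of 17 bright members passed, against 53.0% of 1280 such genes. Among 10 dim members with all averages, mouse 2 was lowest on both kinds of array in 10, with a median difference from mice 1 and 3 of -1.5 over all 13. Among 15 bright members with all averages it was lowest in 5, and the median difference over all 17 was -0.42. The treatments of mouse 2 give the members' calls with this offset handled in other ways. They do not measure its part in the estimates, because they can also act on any difference of that animal. Centring moves bright and dim probes of an array alike, although the offset was larger for dim ones. With arrays centred, with mouse 2 aligned by signal and without mouse 2, 9 members were higher in kidney in each. They were Miox, Hsd3b4, Hsd11b2, Aldh3b1, Hsd3b2, Akr7a5, Rdh16, Rdh16f2 and Aldh8a1. Liver calls numbered 11, 15 and 15 in these treatments. The share of all genes called was then 32.0%, 37.2% and 36.0%. For kidney calls it was 19.5%, 20.3% and 20.3%, and for liver calls 12.4%, 16.8% and 15.7%.

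**Figure D3:**
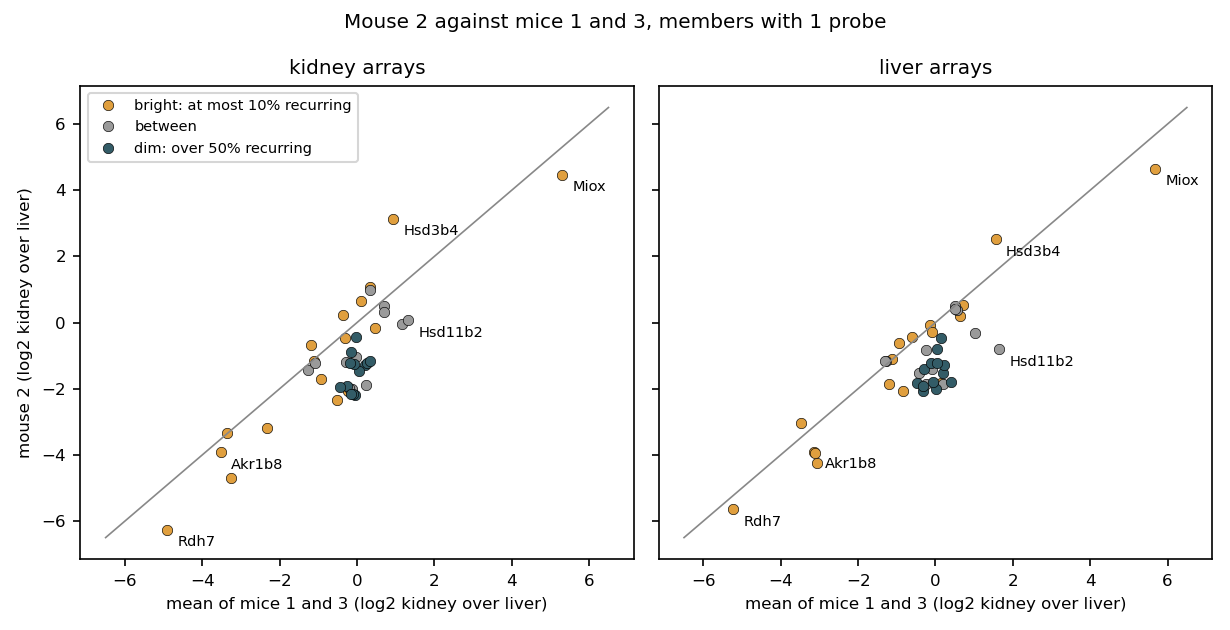
Average of mouse 2 (vertical axis) against the mean of mice 1 and 3 (horizontal axis), both as log2 ratios of kidney over liver, on kidney arrays (left) and liver arrays (right), for tested members with 1 probe, with equality as a line. Dim members (dark) sit near 0 for mice 1 and 3 and below the line for mouse 2, while bright members (orange) have a median difference of -0.42, with Hsd3b4 above it on both kinds.

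The kidney and liver values of a mouse are not independent. A fit of the single organ against the pool, with the mouse as a replicate block, takes each mouse as 1 pair. There 9 of the 15 called members passed, against 7.51% of all genes (2.79% with kidney excess and 4.72% with liver excess). They were Miox and Hsd3b4 on the kidney side and Rdh7, Hsd17b6, Akr1b8, Hsd17b2, Hsd3b7, Hsd11b1 and Rdh11 on the liver side. In that fit limma gave each member with all averages the same SE of 0.45, so its smallest p-values are not quoted. The larger ones quoted for single genes share this limit. They do not measure the spread of that gene between mice. With this block on centred arrays 6 members were higher in kidney and 8 in liver, against 11.8% and 5.35% of all genes. On the kidney arrays alone 7 members passed, against 5.0% of all genes (1.86% with kidney and 3.14% with liver excess). On the liver arrays alone 11 passed, among them Dhrs7c, against 8.94% of all genes (3.18% with kidney and 5.77% with liver excess). Both lists held Miox, Rdh7, Hsd17b6, Akr1b8, Hsd17b2, Hsd3b7 and Hsd11b1. In the fit of the liver arrays alone limma gave each member with 3 mice the same SE of 0.44. Dhrs7c had values on 2 liver arrays, at -1.85 and -1.45, and on 1 kidney array, at -0.25.

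In the remaining treatments the members' calls and the shares over all genes were as follows. Without mouse 1, 1 member was higher in kidney and 5 in liver, against 1.84% and 4.2% of genes (6.04% in either direction). Without mouse 3 the members' calls were 2 and 7, against 2.0% and 4.12% of genes (6.11% in either direction). With dim probes left out they were 6 and 15, against 14.8% and 19.6% (34.4% in either direction). With trend and robust variances they were 6 and 13, against 7.79% and 7.81% (15.6% in either direction). With the median of the probes of a symbol they were 2 and 12, against 5.55% and 8.83%, and with values required in all 6 averages 2 and 12, against 7.0% and 10.1%. Quantile normalization gave 7 and 31, against 11.2% and 60.9% of genes (72.1% in either direction).

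**Figure D4:**
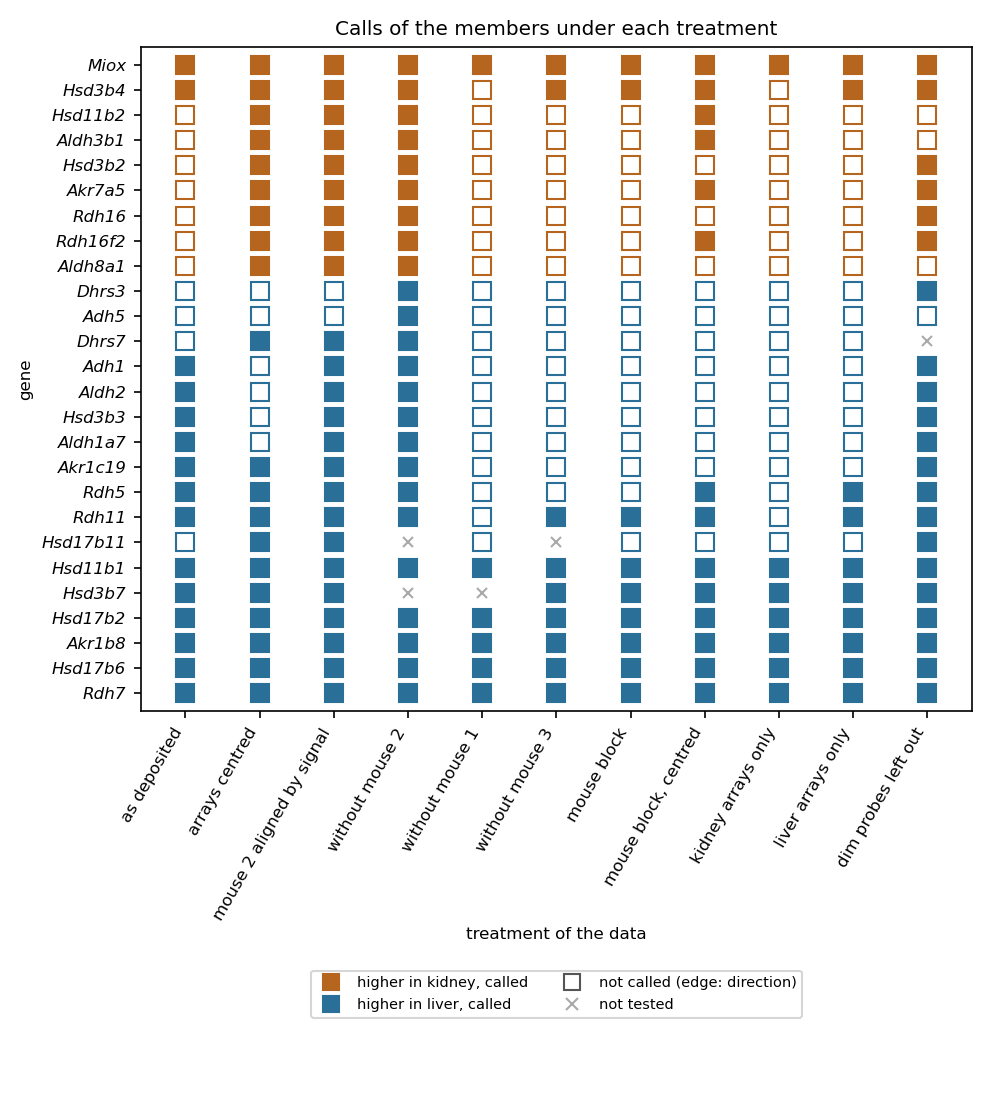
Calls of members (rows) under each treatment of the data (columns), with filled squares for an adjusted p under 0.05, open squares for none, orange edges for kidney excess, blue edges for liver excess and crosses where a gene was not tested. Miox, Hsd11b1, Hsd17b2, Akr1b8, Hsd17b6 and Rdh7 are filled in every column, and the 7 kidney genes below Hsd3b4 are filled together where arrays are centred, mouse 2 is aligned or mouse 2 is left out.

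Whether the ratio depended on which organ came from the single mouse could hardly be shown by this design. No member passed for a difference between kidney arrays and liver arrays in the same limma fit, and 0% of all 9047 genes did. At an unadjusted p under 0.05 there were 0 members and 16 genes, fewer than an even spread of p-values would give. The fit without a block counts differences between mice that both kinds of array share as residual error, so it says little about such a dependence. With the mouse as a block 0 members passed, against 0.133% of all genes. The largest such difference among members was 0.62, in Hsd3b7, at -2.77 ± 0.61 on the kidney arrays (SD, n = 2) and -3.39 ± 0.51 on the liver arrays (SD, n = 3). A kidney array of mouse 1 was at -0.79 for this gene, while the other 4 with a value lay between -3.21 and -3.03. Across members the median SD was 0.286 between repeat hybridisations and 0.598 between mice within an array kind. The SD between mice was 0.435 in bright members and 0.869 in dim ones, and it includes the offset of mouse 2.

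Enzymes of related chemistry outside these families also went both ways. Of 12 tested genes of other carbonyl and aldehyde metabolism, 3 had kidney excess and 4 liver excess, with a median of -0.59, against 5.56% and 8.88% of all genes. With the mouse as a block the liver calls of Cbr1, Cbr3 and Xdh were lost (adjusted p = 0.307, 0.0945 and 0.0523, limma). Acss1, the mitochondrial acetyl-CoA synthetase that uses the acetate left by aldehyde dehydrogenases, was at 3.40 (SE 0.27), and Bdh2, a short-chain dehydrogenase, at 2.96 (SE 0.21). Catalase (Cat), which can oxidise ethanol, was at -2.12 (SE 0.20). Of 8 tested steroid receptors and other steroid enzymes, 1 had kidney excess and 2 liver excess, with a median of -0.34. Pgrmc1, a haem-binding protein of the endoplasmic reticulum, was at -2.83 (SE 0.20), Cyp7b1, the oxysterol hydroxylase, at -2.09 (SE 0.22), and Cyp17a1, the 17-alpha-hydroxylase, at 0.82 (SE 0.22). With the mouse as a block Cyp17a1 did not pass (adjusted p = 0.283, limma).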

How the data were processed

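Per the labels, slides were scanned with a GenePix 4000A, GenePix Pro 3.0 gave background-subtracted mean intensities, and ratios were set to a median of 1. The last step does not hold for the 6 arrays of mouse 2, whose medians as kidney over liver lay between -1.49 and -1.19. The deposited values are log2 ratios. The base comes from recurring steps in the data. Among 90 such steps, 35 fitted small whole-number ratios (integers to 10) in log2, 0 in ln and 0 in log10. Dyes per sample are not given in the sources used here, and raw intensities were not used. Values were used as deposited and turned to kidney over liver. Of 20419 probes, 11723 had 1 symbol, 806 several and 7890 none. RefSeq held 11590 of the single symbols and 133 were left as annotated. Probes of a symbol were averaged, then hybridisations of a mouse and organ. The 6 averages were fitted with limma 3.58.1 in R 4.3.3 (organ difference plus array kind), on genes measured in 2 or more mice on each kind of array, without a block. The same animals supplied both organs, per the labels. As sample over pool, the deviations of a mouse from the group means in kidney and in liver had correlations of -0.591, -0.795 and -0.585 (mice 1 to 3, across 14688 probes), so p-values of the fit without a block tend to be too small. The fit was also run on simulated averages drawn independently of each other. They held no shared effect of a mouse and no offset of mouse 2, so that run says nothing on this limit. p-values are two-sided. Alternatives were centring, alignment of mouse 2 within 10 signal bins, quantile normalization, the block, other filters and variances, each array kind alone and each mouse left out. Named in full were called members and a set listed with the rule (Miox, Hsd11b1, Hsd11b2, Adh1, Adh5, Aldh1a1, Aldh2, Akr1a1, Akr1b3 and Akr1b7, the last pair not analysed here). Others are given by estimate or range, and those described further were chosen after their values were seen. Members and lists were chosen with earlier results of these data known.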

Additional observations from a re-analysis of the deposited data

Results flagged for a closer look

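In 91 groups of arrays (the kidney or the liver arrays of a member), 3 held an array apart from the rest by Dixon's test, and chance alone gives about 1 in 20. Arrays of a mouse repeat the same RNA, so the groups are not made of independent samples. For Hsd11b2, a liver array of mouse 2 was at -3.00, while the other 8 lay between -0.20 and 1.92. For Hsd17b12, a liver array of mouse 3 was at -1.19, while the other 8 lay between -0.35 and 0.33. For Hsd3b7, a kidney array of mouse 1 was at -0.79, while the other 4 with a value lay between -3.21 and -3.03. The part of these arrays in the averages was not tested, except that Hsd11b2 passed without mouse 2.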

How the results depend on the processing

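Of the 15 called members, 7 stayed called on the same side in every one of the 14 alternatives that gave them a value (Miox, Rdh7, Hsd17b6, Akr1b8, Hsd17b2, Hsd3b7 and Hsd11b1). As deposited, 1306 genes passed, with 2 members higher in kidney and 13 in liver. With each array centred the numbers were 2892 genes and 9 kidney members, and with mouse 2 aligned by signal 3362 and 9. With the mouse as a replicate block they were 679 genes and 7 liver members, and with the replicate block on centred arrays 6 kidney and 8 liver members. Leaving out a mouse gave between 463 (without mouse 1) and 2726 genes (without mouse 2), between 1 and 9 kidney members and between 5 and 15 liver members. Without mouse 1 there were 1 and 5 members, without mouse 3 536 genes with 2 and 7. Kidney arrays alone gave 454 genes with 1 and 6 members, and liver arrays alone 836 genes. Kidney members numbered 6 without dim probes and 6 with trend and robust variances, against 14.8% and 7.79% of all genes. Shares for the other treatments are given with the same counts in the results above. Quantile normalization gave 6519 genes with 7 and 31 members. For kidney arrays against liver arrays, 1 gene passed after centring and 12 with the replicate block, in place of 0. Aldh1a1 turned from -0.11 to 0.34 after centring, also with the replicate block on centred arrays, to 0.37 with mouse 2 aligned and to 0.06 without mouse 2 (-0.25 to 0.06 over the mice left out), and Akr1a1 from -0.48 to 0.02 with mouse 2 aligned. None of these turned values passed. Adh5 passed without mouse 2 (-0.36) and after quantile normalization (-0.78), and Akr1a1 after quantile normalization (-0.51). The cause of these changes was not tested. Signal over background was not available, and 3 mice limit the precision.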
